A study of Mus musculus with 6 samples.

Results

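Lars2 and 9 genes taken as noncoding or structural RNAs were followed across the 6 hippocampal libraries of the series. They were Gm23935, Gm24270, Gm24447, Rn7sk, Rmrp, Rpph1, Malat1, Meg3 and Snhg11, that is 10 genes of the 37315 listed. The genes had been chosen because extreme ratios between paired libraries, or high and unequal counts, were seen in these same data, that is, they were selected on their CPM and on its ratio within pairs. Their ratios are therefore given as descriptions, without a test. All 10 identifiers were found in the count files, and 9 of the 10 genes had at least 10 counts over the controls, Rmrp being the exception.

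All libraries were made from hippocampal RNA of C57BL/6J mice aged 4 weeks and formed 3 pairs. The first pair was Prrc2a f/f (homozygous for a floxed Prrc2a allele) against Prrc2a f/f;Nestin-Cre, in which the recombinase is active in neural progenitors and their progeny. The second was Prrc2a f/f against Prrc2a f/f;Olig2-Cre, which deletes Prrc2a in the oligodendroglial lineage and, as the Cre sits in the Olig2 gene, leaves 1 working copy of Olig2. The third was WT against Fto Tg, which carries a lentiviral Fto transgene under the ubiquitin C promoter. Each group had 1 library, so there was no replicate check, and the 4 libraries of the Prrc2a pairs share the floxed allele. Both f/f controls are titled WT by the submitters, but the genotype labels give Prrc2a flox/flox.

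Lars2 is the mitochondrial leucyl-tRNA synthetase, a nuclear-encoded enzyme that loads leucine onto mitochondrial leucine tRNA. Rn7sk is the 7SK RNA, which with Larp7, Mepce and the Hexim proteins holds the transcription elongation kinase Cdk9 and its cyclin T partners inactive. Rmrp and Rpph1 are the catalytic RNAs of RNase MRP and RNase P, which act on precursors of ribosomal RNA and tRNA and share most protein subunits. Malat1 is a nuclear long noncoding RNA of speckles, Meg3 is a maternally expressed long noncoding RNA of the imprinted Dlk1-Dio3 locus, and Snhg11 is a small nucleolar RNA host gene. The gene annotation used here labels Snhg11 as protein-coding. Most short structural RNAs carry no poly(A) tail, whereas the RNA here was selected with oligo(dT) beads, so counts of such genes reflect what passed that selection as well as the amount in tissue.

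Total counts ranged from 18616540 (Olig2-Cre) to 35482589 (f/f of the Nestin-Cre experiment), and values are CPM, the count scaled to the library total as reads per 1000000. Prrc2a was 434 CPM in f/f and 184 CPM in Nestin-Cre, 389 and 346 CPM in the Olig2-Cre pair, and Fto was 158 CPM in WT and 354 CPM in Fto Tg. The Nestin-Cre library stood apart from the other 5. Genes of the mitochondrial chromosome took 26.2% of its counts against 7.97 to 8.86% elsewhere, and the median gene of that pair had a log2 ratio of -0.72. The median genes of the other pairs were at -0.01 (Olig2-Cre) and -0.00 (Fto). The 10 genes together took 1.37 to 2.44% of the counts of a library.

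Gm23935, Gm24270, Gm24447 and Rn7sk are short and have near-identical copies, so their sequences are shown first. Gm23935 (chr16:11144125-11144181, plus strand, an intron of Zc3h7a on the opposite strand) and Gm24270 (chr9:56223715-56223771, minus strand, an intron of Peak1 on the same strand) are annotated as miRNA genes of 57 bases. They are identical to each other and to Gm24245 (chr4:139338304-139338360), while Gm24187 (chr13:9834469-9834525) carries 1 substitution, G11A, counted from the 5′ end of Gm23935. The capital marks that base. Sequences are GENCODE M21 transcripts on GRCm38, written 5′ to 3′.
Gm23935, Gm24270 and Gm24245: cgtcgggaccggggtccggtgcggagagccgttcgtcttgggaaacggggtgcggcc
Gm24187: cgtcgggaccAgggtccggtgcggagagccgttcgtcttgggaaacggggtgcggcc

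Rn7sk (chr9:78175303-78175633, minus strand, 331 bases) and Gm24447 (chr15:93234363-93234700, plus strand, 338 bases) are annotated as misc_RNA and share their first 241 bases without a mismatch. Their 3′ ends are unrelated, with 90 bases in Rn7sk and 97 bases in Gm24447 after the shared part. The last 30 shared bases are in lower case and the bases that differ between the genes are in capitals. A read inside the shared 241 bases matches both genes, and only a read that reaches into the capitals, or past the 5′ end, can be placed by sequence.
Rn7sk: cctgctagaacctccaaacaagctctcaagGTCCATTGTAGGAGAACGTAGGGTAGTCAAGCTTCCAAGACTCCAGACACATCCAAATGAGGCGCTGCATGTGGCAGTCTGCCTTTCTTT
Gm24447: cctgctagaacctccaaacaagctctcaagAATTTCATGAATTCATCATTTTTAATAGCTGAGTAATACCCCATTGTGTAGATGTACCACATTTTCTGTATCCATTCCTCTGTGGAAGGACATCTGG

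Lars2 (ENSMUSG00000035202, chr9:123366927-123462666, plus strand) was abundant in 5 libraries and much lower in Nestin-Cre. It was 4306 CPM in f/f and 62.4 CPM in Nestin-Cre of the first pair, 1884 CPM in f/f and 1913 CPM in Olig2-Cre, and 1746 CPM in WT and 2035 CPM in Fto Tg. The Nestin-Cre library was below all 5 others, and the f/f library of that same pair was above all 5 others. The ratio of the first pair was 69.0-fold lower, a log2 ratio of -6.11 with a 95% counting interval of -6.17 to -6.05. The controls alone differed 2.47-fold, with a mean of 2645 ± 1440 CPM (SD, n = 3). Against the f/f library of the second pair, which was 1884 CPM, the Nestin-Cre value had a log2 ratio of -4.92. Olig2-Cre in turn had a log2 ratio of -1.17 against the f/f library of the first pair, so the choice of control decided whether Lars2 passed 2-fold there.

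The level of Lars2 per length was set beside those of the other aminoacyl-tRNA synthetases, the enzymes that load tRNAs with amino acids. Over its exons (11089 bases in the union of its 9 transcripts, of which 5 are annotated as retained introns) Lars2 had 157 to 388 CPM per kb in the 3 controls. The next of the 17 other mitochondrial synthetases, Hars2, had 7.61 to 8.15 CPM per kb there, so that Lars2 was 19.3 to 51.0 times as high. The list of 17 counts Qrsl1, an amidotransferase subunit needed for mitochondrial glutaminyl-tRNA, with the synthetases. In Nestin-Cre, Lars2 had 5.63 CPM per kb and the next synthetase, Iars2, had 4.61 CPM per kb, a ratio of 1.22. Lars2 was also above all 19 measured cytosolic synthetases in the 5 other libraries and 14th of 20 in Nestin-Cre. Repeat sequence inside the Lars2 exons, which could add to its count, was not analysed here. The Lars2 transcripts hold none of the 86 words of 15 bases in the 57-base sequence, either strand. That search covered this 1 sequence only, so it cannot show whether other repeat sequence adds to the Lars2 count.

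The 17 other mitochondrial synthetases did not share the 69.0-fold difference. In the Nestin-Cre pair, 8 of 17, Qrsl1 among them, were at least 2-fold lower and 0 were higher (39.9% and 6.64% of all genes). The median log2 ratio of the 17 was -0.99 against -0.72 for all genes. Iars2, for isoleucine, was 41.9 CPM in f/f and 41.0 CPM in Nestin-Cre, Hars2 was 32.6 and 12.7 CPM, Tars2 was 32.1 and 16.9 CPM, and Aars2 was 27.5 and 6.39 CPM. In the Olig2-Cre and Fto pairs, 0 of 17 passed 2-fold in either direction (5.64% and 5.95% of all genes). The cytosolic synthetases had 6 of 19 lower and 0 higher in the Nestin-Cre pair, a share of lower genes below the 39.9% of all genes, with a median log2 ratio of -0.54 that became 0.15 with TMM scaling. The most abundant of them were Nars, with a log2 ratio of -0.16, Sars with 0.64, Aars with -0.36 and Eprs with 0.12. The substrates of Lars2, mt-Tl1 and mt-Tl2, were at most 0.229 and 0.0397 CPM in any library, too few for a comparison.

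Mitochondrially encoded RNAs ran opposite to Lars2 in the Nestin-Cre pair. Of 15 tested, 11 were at least 2-fold higher and 2 lower (6.64% and 39.9% of all genes), with a median log2 ratio of 2.08. The cytochrome oxidase subunit mt-Co1 was 12804 CPM in f/f and 45492 CPM in Nestin-Cre, mt-Cytb was 6802 and 37062 CPM, and the complex I subunit mt-Nd4 was 6470 and 32743 CPM. In the opposite direction, mt-Co3 was 11008 and 5067 CPM. In the Olig2-Cre pair 0 of 22 were higher and 1 lower (2.23% and 3.41% of all genes), and in the Fto pair 4 of 27 were higher and 1 lower (2.42% and 3.53%). Every gene past 2-fold in the Olig2-Cre and Fto pairs was at most 0.913 CPM in its libraries, so these shares rest on few counts. Mitochondrial tRNA genes with a count numbered 2 in f/f and 1 in Nestin-Cre of the first pair, against 12 to 22 in the other 4 libraries, so this measure separated the first experiment, control included, from the other experiments. Whether that difference has a part in the higher Lars2 and Gm24270 of this f/f control was not tested.

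**Figure D1:**
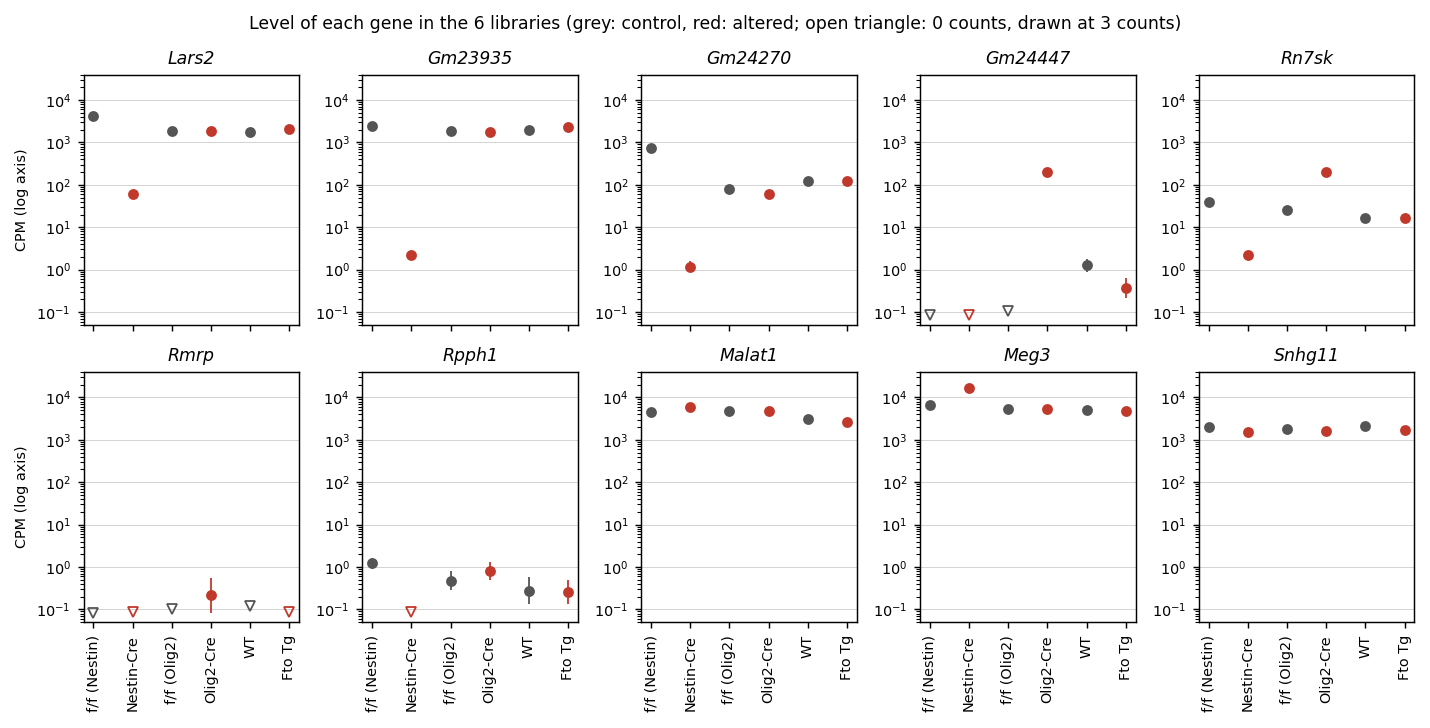
CPM of the 10 genes (log axis) in the 6 libraries, with 1 point per library, grey for controls, red for altered genotypes, and bars for Wilson 95% counting intervals. Open triangles mark 0 counts and are drawn at the value of 3 counts. Lars2, Gm23935, Gm24270 and Rn7sk were lowest in Nestin-Cre, and Gm24447 and Rn7sk were highest in Olig2-Cre.

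Gm23935 (ENSMUSG00000076258) was even across 5 libraries and near 0 in Nestin-Cre. It was 2448 CPM in f/f and 2.27 CPM in Nestin-Cre, 1838 and 1799 CPM in the Olig2-Cre pair, and 2012 and 2314 CPM in the Fto pair. The Nestin-Cre value rested on 79 counts against 86855 in its control, a ratio of 1077-fold (log2 -10.07, counting interval -10.39 to -9.75). The controls differed 1.33-fold, with a mean of 2099 ± 314 CPM (SD, n = 3), so the Nestin-Cre value was far outside them and the Olig2-Cre value was 1.02-fold below the lowest. Its host Zc3h7a was 39.1 to 59.5 CPM in all 6 libraries and did not show the same difference.

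Gm24270 (ENSMUSG00000076281), the identical copy, varied between controls as well. It was 761 CPM in f/f and 1.18 CPM in Nestin-Cre, 78.2 and 61.2 CPM in the Olig2-Cre pair, and 126 CPM in both WT and Fto Tg. The Nestin-Cre pair differed 645-fold (log2 -9.33, counting interval -9.78 to -8.89), but the controls differed 9.73-fold among themselves, and the Nestin-Cre value was 66.3-fold below the lowest control. As a share of the Gm23935 count, Gm24270 was 31.1% in the f/f library of the first pair and 51.9% in Nestin-Cre, against 3.40 to 6.25% in the other 4 libraries. Identical genes were therefore counted in unequal and shifting proportions. Its host Peak1 was 57.7 to 87.2 CPM, highest in Nestin-Cre.

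The reads were 101 bases long before trimming, 44 more than these genes, and the counting kept uniquely placed reads, so an untrimmed read was placed by bases outside the 57. The third copy, Gm24245, had 0 counts in every library. Gm24187, with 1 substitution, had 1743 counts in f/f and 98 in Nestin-Cre of the first pair (49.1 and 2.82 CPM). It had 930 and 485 counts in the second pair (32.0 and 26.1 CPM), and 802 and 1265 in the third (31.8 and 36.3 CPM). Summed over the 6 listed copies, the family was 3258 CPM in f/f and 6.27 CPM in Nestin-Cre, 1948 and 1886 CPM in the Olig2-Cre pair, and 2170 and 2477 CPM in the Fto pair. The sum put the libraries in the same order as Gm23935 did. Because counts of such copies can move between loci, the value of any single copy is uncertain.

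Rn7sk (ENSMUSG00000065037) was low in Nestin-Cre and high in Olig2-Cre. It was 39.4 CPM in f/f and 2.27 CPM in Nestin-Cre, 25.8 CPM in f/f and 202 CPM in Olig2-Cre, and 16.9 CPM in both WT and Fto Tg. The Nestin-Cre pair was 17.3-fold lower (log2 -4.12, counting interval -4.44 to -3.79) and the Olig2-Cre pair 7.80-fold higher (log2 2.96, counting interval 2.85 to 3.08). The 3 controls spanned 2.33-fold, with a mean of 27.4 ± 11.3 CPM (SD, n = 3), and neither extreme library overlapped them. WT and Fto Tg, with 426 and 590 counts, could not be told apart by counting error.

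Gm24447 (ENSMUSG00000065911), the 7SK-like gene with the same 241 leading bases, was seen at a high level in 1 library. It had 0 counts in both libraries of the Nestin-Cre pair, 0 counts in f/f and 3657 counts (196 CPM) in Olig2-Cre, and 32 counts (1.27 CPM) in WT and 13 counts (0.373 CPM) in Fto Tg. With 3 counts as the floor for the f/f library, the Olig2-Cre pair was at least 1900.6-fold higher. The Fto pair was 3.41-fold lower, a log2 ratio of -1.77 with a counting interval of -2.70 to -0.84. Gm24447 equalled 97.4% of the Rn7sk count in Olig2-Cre, 7.51% in WT, 2.20% in Fto Tg and 0% in the other 3 libraries. Both genes were thus highest in Olig2-Cre, and the 6 libraries differed in the share that fell to Gm24447.

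The other 7SK-like copies did not carry the Olig2-Cre difference. In all, 163 further noncoding genes aligned to at least 50% of Rn7sk, and 62 had a count in some library (the protein-coding gene Alkbh6, which also aligned, was left out). Their summed counts were 175 in f/f and 126 in Nestin-Cre, 153 in f/f and 104 in Olig2-Cre, and 100 in WT and 138 in Fto Tg. These sums are not scaled to the library totals, which differed within pairs. Rn7sk, Gm24447 and these copies together were 31.1 CPM in f/f and 404 CPM in Olig2-Cre. Rn7sk made up 38.5% of that sum in Nestin-Cre, the smallest share of the 6 libraries, where it was otherwise 49.9 to 88.9%.

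The mRNAs of the protein partners of 7SK did not show differences of the size of Rn7sk. In the Olig2-Cre and Fto pairs, 0 of 7 passed 2-fold. In the Nestin-Cre pair 1 was higher and 2 were lower (6.64% and 39.9% of all genes), with a median log2 ratio of -0.44 that became 0.24 with TMM scaling. The lower genes were Hexim1, 67.8 CPM in f/f and 32.9 CPM in Nestin-Cre, and Mepce, the capping enzyme of 7SK, 37.7 and 10.2 CPM. The higher gene was Larp7, which binds the 3′ end of 7SK, with 15.4 and 38.2 CPM. Mepce and Larp7 were named after their values were seen. The kinase Cdk9 was 66.9 and 49.1 CPM, and the cyclins Ccnt2 and Ccnt1 were 108 and 96.6 CPM and 57.0 and 67.0 CPM.

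Rpph1 (ENSMUSG00000092837, chr14:50807449-50807767, minus strand) was close to the limit of detection. It had 44 counts in f/f and 0 in Nestin-Cre, 14 and 15 counts in the Olig2-Cre pair, and 7 and 9 counts in the Fto pair, or at most 1.24 CPM. The Nestin-Cre pair was at least 14.4-fold lower, with 3 counts as the floor. The controls differed 4.46-fold, the f/f library of the first pair again being the highest. In the Olig2-Cre pair the log2 ratio was 0.74 with a counting interval of -0.31 to 1.79, which includes 0. Rmrp (ENSMUSG00000088088, chr4:43492788-43493058, minus strand) had 4 counts in Olig2-Cre and 0 in the other 5 libraries, which allow up to 0.0845 to 0.119 CPM at 3 counts, so no difference was detectable. Rmrp shares 124 exon bases with Ccdc107 on the opposite strand and Rpph1 shares 233 with Ccnb1ip1 on the same strand. Union-mode counting leaves out reads over bases shared by different genes, so these levels may be understated.

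The mRNAs of the RNase P and RNase MRP proteins were above Rmrp and Rpph1 in every library, although Rpp25l was 0.81 CPM in Nestin-Cre. In the Nestin-Cre pair, 6 of 11 were at least 2-fold lower and 1 higher (39.9% and 6.64% of all genes), with a median log2 ratio of -1.37, or -0.68 with TMM scaling. Pop5 was 39.2 CPM in f/f and 14.9 CPM in Nestin-Cre, Rpp14 was 17.9 and 4.80 CPM, Pop7 was 13.3 and 1.90 CPM, and Pop4 was 23.1 and 90.4 CPM. None of the 11 passed 2-fold in the Olig2-Cre or Fto pair, where the median log2 ratios were 0.31 and 0.19.

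Malat1, Meg3 and Snhg11, the long RNAs, varied least. Malat1 (ENSMUSG00000092341, chr19:5795690-5802672, minus strand) was 4604 CPM in f/f and 5802 CPM in Nestin-Cre, 4796 and 4765 CPM in the Olig2-Cre pair, and 3030 and 2694 CPM in the Fto pair. The WT and Fto Tg libraries were the lowest, so the larger split ran between experiments (controls 1.58-fold apart, 4143 ± 969 CPM, SD, n = 3). Within pairs Malat1 differed by at most 1.26-fold. With TMM scaling the log2 ratio in Nestin-Cre moved from 0.33 to 1.02.

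Meg3 (ENSMUSG00000021268, chr12:109541001-109571726, plus strand) was higher in Nestin-Cre. It was 6726 CPM in f/f and 16993 CPM in Nestin-Cre, 5243 and 5209 CPM in the Olig2-Cre pair, and 5085 and 4794 CPM in the Fto pair. The Nestin-Cre pair was 2.53-fold higher (log2 1.34, counting interval 1.33 to 1.34), and the controls spanned 1.32-fold with a mean of 5685 ± 905 CPM (SD, n = 3). The 5 other libraries lay within a narrow range, with the f/f library of the first pair at the top. The protein-coding neighbours in the imprinted locus did not move as a block. In the Nestin-Cre pair Dlk1 was 6.31 and 17.5 CPM, Begain 112 and 34.6 CPM, Rtl1 12.6 and 11.5 CPM, and Dio3, the type 3 deiodinase, 4.14 and 2.27 CPM. Dio3 was 3.45 and 8.65 CPM in the Olig2-Cre pair, where it was the 1 gene of 4 past 2-fold (2.23% of all genes were higher). In the Fto pair 0 of 4 passed 2-fold.

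Snhg11 (ENSMUSG00000044349, chr2:158375638-158386145, plus strand) had the narrowest range of the 9 genes measured, 1.33-fold from lowest to highest library. It was 1984 CPM in f/f and 1565 CPM in Nestin-Cre, 1796 and 1629 CPM in the Olig2-Cre pair, and 2081 and 1673 CPM in the Fto pair. Each altered library was below its control, by 1.27-fold, 1.10-fold and 1.24-fold, and the controls spanned 1.16-fold (1953 ± 145 CPM, SD, n = 3). In the Nestin-Cre pair this direction turned with TMM scaling, from a log2 ratio of -0.34 to 0.34. The other small nucleolar RNA host genes measured differed more in that pair, with 6 of 6 lower (39.9% of all genes) and a median log2 ratio of -2.40. Of the 17 host genes listed, 8 were found in the count files and 6 had enough counts in that pair. Gas5 was 107 CPM in f/f and 32.0 CPM in Nestin-Cre, Zfas1 was 26.2 and 3.62 CPM, Snhg12 was 20.9 and 5.47 CPM, and Snhg20 was 12.7 and 0.777 CPM. In the Olig2-Cre pair 0 of 6 passed 2-fold, and in the Fto pair 0 of 7 were higher and 1, Snhg9, lower (3.53% of all genes). Snhg9 was 0.278 CPM in WT and 0.0860 CPM in Fto Tg and was named after its values were seen.

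Other nuclear long noncoding RNAs and short RNAs gave a mixed picture. Of the 9 nuclear long noncoding RNAs listed, 2 were found in the count files, Neat1 and Airn. Neat1, the RNA of paraspeckles, was 133 and 75.8 CPM in the Nestin-Cre pair, 88.5 and 98.6 CPM in the Olig2-Cre pair, and 80.2 and 79.3 CPM in the Fto pair. Airn was 0.89 to 1.38 CPM in all libraries. Among other short structural RNA genes, 39 of 129 were at least 2-fold higher and 40 lower in the Nestin-Cre pair (6.64% and 39.9% of all genes), 14 of 93 higher and 17 lower in the Olig2-Cre pair (2.23% and 3.41%), and 16 of 107 higher and 20 lower in the Fto pair (2.42% and 3.53%). The most abundant, Gm22009, was 9.61 CPM in f/f and 16.3 CPM in Nestin-Cre. Gm25047 was 1.66 and 7.28 CPM, Gm23205 was 1.21 and 7.68 CPM, and Gm23119 was 2.51 and 2.04 CPM in that pair. Gm15564, the 1 ribosomal-RNA-like gene of 12 that was measured, was 0.82 and 0.32 CPM in the Nestin-Cre pair, 1.83 and 0.59 CPM in the Olig2-Cre pair, and 0.44 and 0.60 CPM in the Fto pair. Of the replication-dependent histone genes, whose mRNA mostly ends in a stem-loop instead of a poly(A) tail, 15 of 20 were lower and 0 higher in the Nestin-Cre pair (39.9% and 6.64% of all genes), with a median log2 ratio of -1.90. Hist1h2bc was 18.7 CPM in f/f and 3.60 CPM in Nestin-Cre, Hist1h1c was 15.0 and 1.41 CPM, Hist3h2ba was 16.0 and 1.50 CPM, and Hist3h2a was 16.9 and 10.2 CPM. In the Olig2-Cre pair 5 of 20 histone genes were lower (3.41% of all genes) and in the Fto pair 3 of 18 (3.53%), with 0 higher in both. The lower genes were at most 1.34 CPM in the Olig2-Cre pair and 0.873 CPM in the Fto pair, so these shares rest on few counts.

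Counted over the genes, differences of at least 2-fold were most frequent in the Nestin-Cre pair, as they were over the whole transcriptome. In that pair 5 of 8 genes with 10 or more counts were lower (39.9% of all genes were) and 1, Meg3, was higher (6.64% of all genes). In the Olig2-Cre pair 2 of 9, Rn7sk and Gm24447, were higher (2.23% of all genes). In the Fto pair 1 of 9, Gm24447, passed 2-fold in either direction (5.95% of all genes). Since these ratios chose the genes, nothing is read from these counts against the background.

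**Figure D2:**
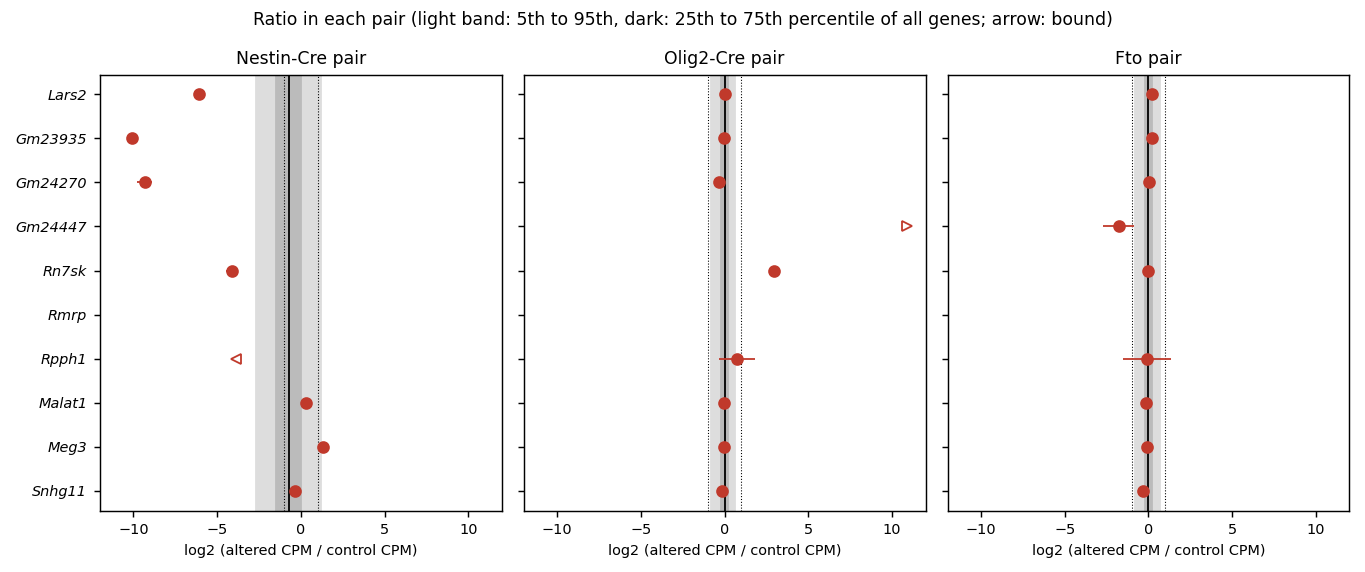
Log2 ratio of altered over control CPM for each gene with at least 10 counts in the pair, beside the 5th to 95th (light) and 25th to 75th (dark) percentile of all genes and their median (line). Dotted lines mark 2-fold, bars are 95% counting intervals and open arrows are bounds from 0 counts. The 5 low genes of the Nestin-Cre pair lay left of the light band, at log2 ratios of -3.84 to -10.07, and Rn7sk and Gm24447 lay far right of it in the Olig2-Cre pair, with Rpph1 at its edge (0.74).

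Several of the genes differed between controls alone. A range of at least 2-fold over the 3 controls was found for 5 of 9 genes, against 14.5% of all genes, and these were Lars2, Gm24270, Gm24447, Rn7sk and Rpph1. In Lars2, Gm24270, Rn7sk and Rpph1, the f/f library of the first pair was the highest control. Without that library the count was 1, and without WT it was 3. This range was in view when the genes were chosen, so nothing is read from the count. Gm23935, Malat1, Meg3 and Snhg11 spanned 1.16 to 1.58-fold. Between the f/f controls, which carry the same Prrc2a genotype label, 3 of the genes (Lars2, Gm24270 and Rpph1) differed by at least 2-fold, as did 7.30% of all genes. Between f/f and WT, the experiment and the genotype cannot be told apart.

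Set against all 3 controls, the Nestin-Cre library lay below them for 6 of 9 genes, above for 2 and within for 1, where 84.7% of all genes lay outside. The distance beyond the nearest control was 809-fold for Gm23935, 66.3-fold for Gm24270, 28.0-fold for Lars2, 7.44-fold for Rn7sk and at least 3.22-fold for Rpph1. It was 2.53-fold for Meg3, 1.21-fold for Malat1 and 1.15-fold for Snhg11. The Olig2-Cre library lay below the controls for 3 genes, above for 2 and within for 4 of 9, where 56.4% of all genes lay outside. Rn7sk was 5.12-fold and Gm24447 155-fold above the highest control, and the other distances were at most 1.28-fold. The Fto Tg library lay below the controls for 4 and within for 5 of 9, where 58.1% of all genes lay outside, and no distance passed 1.12-fold. The genes were chosen on CPM and pair ratios in these libraries, so nothing is read from these counts or distances.

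Profiles over the libraries were compared by the root mean square difference of log2 CPM after centring each gene on its own mean, where 0 means parallel profiles. Rmrp was left out here because it was at 0 in 5 libraries. Over all 6 libraries, 2 of 36 gene pairs were within 0.5, Malat1 with Meg3 (0.48) and Malat1 with Snhg11 (0.47). The genes lowest in Nestin-Cre were not parallel to each other, with 1.01 for Lars2 and Gm24270, 1.77 for Lars2 and Gm23935, 1.50 for Gm23935 and Gm24270, 1.04 for Rn7sk and Rpph1 and 1.33 for Lars2 and Rn7sk. Gm24447 was at least 2.89 from every other gene, and Rn7sk was the closest to it.

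Without the Nestin-Cre library, 10 of 36 gene pairs were within 0.5. They joined Lars2, Gm23935, Malat1, Meg3 and Snhg11, each with each of the others, from 0.16 for Meg3 and Snhg11 to 0.49 for Lars2 and Malat1. Such closeness was common, as 47.0% of genes were within 0.5 of Lars2, 95.4% of Gm23935, 86.0% of Malat1, 95.9% of Meg3 and 96.1% of Snhg11 over these 5 libraries. Gm24270, Rn7sk and Gm24447 stayed apart from all the other genes, with 0.0482% of genes within 0.5 of Gm24270, 0.00688% of Rn7sk and 0% of Gm24447. Gm23935 and Gm24270, with identical sequence, differed by 1.13 there.

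**Figure D3:**
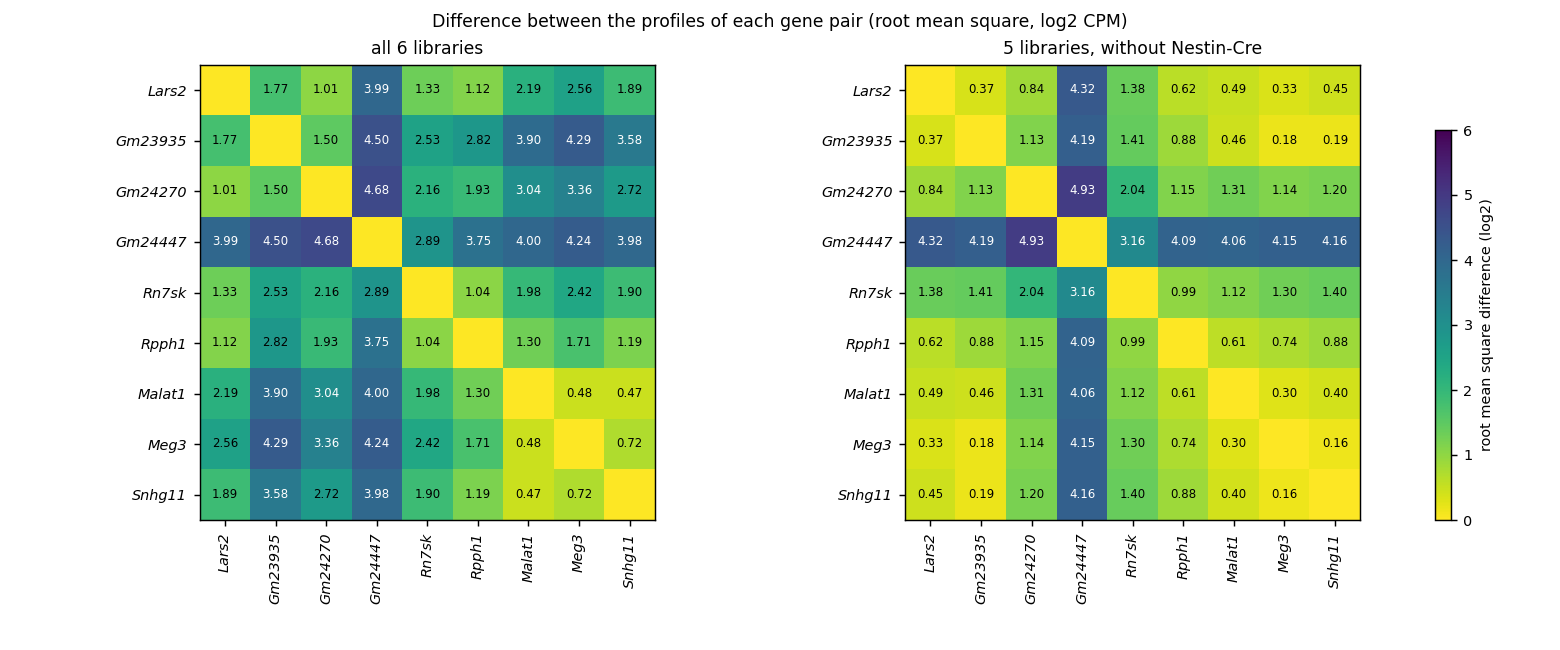
Root mean square difference between the centred log2 CPM profiles of each pair of genes over all 6 libraries (left) and without Nestin-Cre (right), with light cells for parallel profiles and Rmrp left out. Lars2, Gm23935, Malat1, Meg3 and Snhg11 all lay within 0.5 of each other without Nestin-Cre, and Gm24447 was far from every gene in both.

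Other genes came closer to some of these profiles than the 10 did to each other. Over 6 libraries the nearest to Lars2 was Rps29, a small ribosomal subunit protein (0.18), which was 583 CPM in f/f and 10.4 CPM in Nestin-Cre, 290 and 381 CPM in the Olig2-Cre pair, and 244 and 314 CPM in the Fto pair. It was followed by 1110065P20Rik (0.23) and Amn (0.26). Rps29 thus shared both the low Nestin-Cre value and the high value in its f/f control. In all, 0.213% of the 14531 genes with a mean of at least 1 CPM were within 0.5 of Lars2. Over the 5 libraries without Nestin-Cre the nearest were Muc19 (0.10), Sms-ps (0.11) and Snord104 (0.11).

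No gene was within 0.5 of Gm23935, Gm24270, Gm24447 or Rn7sk over 6 libraries. The nearest to Gm23935 were a gene without a symbol (1.02), the transcription factor Cebpb (1.23) and another unnamed gene. The nearest to Rn7sk were Wfdc2 (0.76), Inmt (0.77) and the transcription factor Klf2 (0.81), and without Nestin-Cre they were Stbd1 (0.40), Apold1 (0.55) and Tmem267 (0.71). Apold1 was 5.89 CPM in f/f and 25.1 CPM in Olig2-Cre, and Klf2 was 14.4 and 30.3 CPM. The nearest to Gm24447 were Gm6969 (2.16), Pcna-ps2 (2.57) and growth hormone, Gh (2.64), none of them close. Gm6969 had 4.94 CPM in Olig2-Cre and 3.10 CPM in WT and at most 0.10 CPM elsewhere.

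For Rpph1 the nearest were Phpt1 (0.40), Cox6b2 (0.41) and Pla2g5 (0.42). For Malat1 they were Ednra (0.12), Adam1a (0.13) and Zbtb16 (0.13), for Meg3 Gas8 (0.05), Akap12 (0.06) and Supt6 (0.07), and for Snhg11 the kinase Dclk1, Kctd12b and Dcaf10 (each 0.03). Supt6, a transcription elongation factor, was 240 CPM in f/f and 711 CPM in Nestin-Cre and 189 to 209 CPM in the other 4 libraries, as Meg3 was highest there. Profiles like that of Snhg11 were shared by 67.2% of genes, and those like Malat1 and Meg3 by 30.1 and 10.7%.

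Base composition and length moved with the ratio over all genes in the Nestin-Cre pair. Among 13630 genes with at least 100 counts, the 10% with the lowest GC had a median log2 ratio of -0.15 and the 10% with the highest GC -1.68. The shortest 10% had -1.37 and the longest 10% -0.24. In the Olig2-Cre and Fto pairs the medians of the GC ends were -0.15 to 0.14, and the length ends ran the other way, with 0.21 and 0.25 for the shortest 10% and -0.24 and -0.26 for the longest. The GC of the 57-base genes was 73.7%, of Rpph1 67.1%, of Rn7sk 58.0%, of Gm24447 53.8%, of Lars2 51.2%, of Meg3 49.2%, of Snhg11 44.8% and of Malat1 42.5%.

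Each gene was read against genes within 2 GC points of it. In the Nestin-Cre pair, Lars2 at -6.11 lay below the 5th percentile of its 2827 GC neighbours (-2.41, median -0.80), and Rn7sk at -4.12 below that of 1824 (-3.06, median -1.40). Rpph1 was at most -3.84, a bound, and its 43 neighbours had a median of -3.19 and a 5th percentile of -5.20, so its place among them could not be set. Meg3 at 1.34 was above the 95th percentile of 0.95, and Malat1 and Snhg11 lay inside. For the 57-base genes there was 1 other gene of like GC, so no range could be given. Among 67 genes of like length, Rn7sk lay inside the range of -4.89 to 1.96. In the Olig2-Cre pair Rn7sk at 2.96 was above the 95th percentile of both its GC neighbours (0.47) and its length neighbours (0.74). Since these ratios chose the genes, nothing is read from their places among genes of like GC or length. The part of base composition and length in these ratios was not tested.

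**Figure D4:**
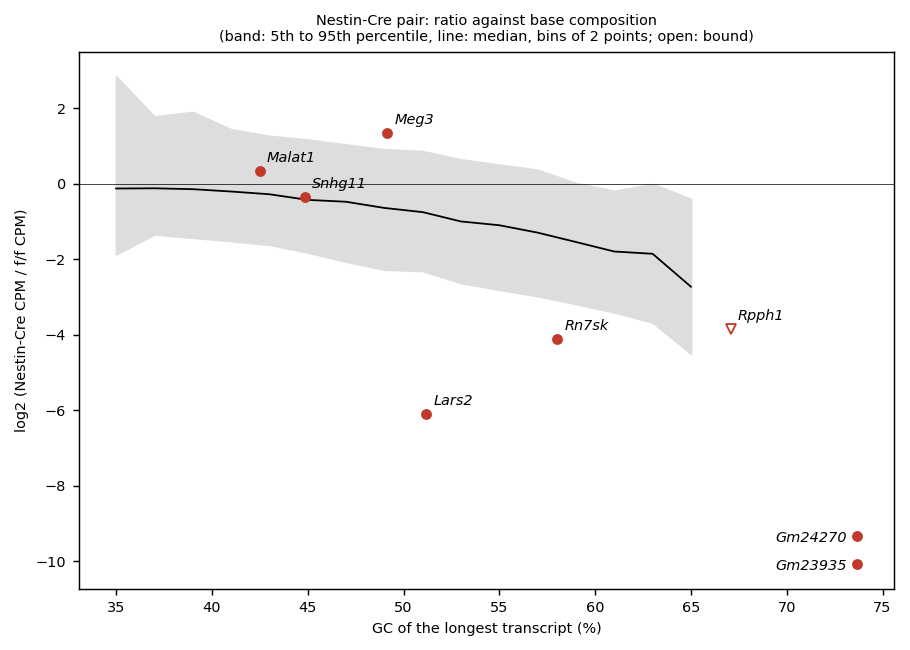
Log2 ratio of the Nestin-Cre pair against the GC of the longest transcript, with the median (line) and 5th to 95th percentile (band) of other genes in bins of 2 points holding at least 20 genes. Lars2 and Rn7sk lay below the band at -6.11 and -4.12, Meg3 above it at 1.34, and the 57-base genes beyond the last bin.

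The tissue label was checked against cell type markers. The 8 markers of hippocampal pyramidal and granule neurons summed to 6521 to 8343 CPM, and 0 of the 49 markers in the 11 lists was at 0 in any library. That sum hid opposite shifts in the Nestin-Cre pair. Slc17a7 was 1407 CPM in f/f and 373 CPM in Nestin-Cre, and Wfs1 was 196 and 64.0 CPM. Neurod6 was 182 and 869 CPM, and Snap25 was 1595 and 2936 CPM. The most abundant marker, Camk2a, was 3678 and 3577 CPM. In the Nestin-Cre library the 5 oligodendrocyte markers summed to 4915 CPM against 5559 to 9068 CPM elsewhere, and the 4 astrocyte markers to 1528 CPM against 1055 to 1473 CPM. Choroid plexus, a secretory epithelium beside the hippocampus, was the list that varied most. Its 5 markers summed to 2859 CPM in f/f and 265 CPM in Nestin-Cre, 2168 CPM in f/f and 3399 CPM in Olig2-Cre, and 1638 CPM in WT and 690 CPM in Fto Tg, with Ttr making up most of each sum. Rn7sk and the choroid plexus markers were both lowest in Nestin-Cre and highest in Olig2-Cre, but differed in the Fto pair, where Rn7sk was equal. The 5 blood markers summed to 2.07 CPM in Nestin-Cre and 7.47 to 19.3 CPM elsewhere. Microglia (142 to 214 CPM), endothelium (89.4 to 121 CPM), interneurons (527 to 696 CPM), meninges (61.4 to 111 CPM), striatum (9.44 to 24.8 CPM) and thalamus (41.5 to 92.8 CPM) varied less than choroid plexus. The part of cell makeup in the levels of the 10 genes was not tested, and in bulk tissue fewer cells of a type and less RNA per cell cannot be told apart.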

How the data were processed

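RNA-seq was performed on 6 hippocampal libraries, 1 per group. The deposited values are whole-number read counts per gene, which the authors made with HTSeq (0.6 per the labels, union mode, no strand) from reads aligned to mm10 with TopHat (TopHat2 2.0.9 per the labels) and kept when uniquely mapped with a mapping quality of at least 20. RNA was selected with Dynabeads. Reads were 101 bases, single or paired being unclear between labels and methods. The gene models were those of Ensembl. Coordinates, GC and lengths here came from GENCODE M21 (GRCm38), matched by Ensembl gene identifier, and 95.2% of the identifiers received a symbol.

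Counts were scaled to CPM by library totals (18616540 to 35482589). Wilson 95% intervals and intervals of log2 ratios from reciprocal counts cover counting error only. Counts under 3 were set to 3 before log2. A gene was past the fold at 2-fold or more with at least 10 counts over the pair. No test was run on the 10 genes, because the members and lists were chosen with earlier results of these data known and each group had 1 library. Named genes were the 10 genes, mt-Tl1 and mt-Tl2, and measured ribosomal-RNA-like genes. They also included at most the 4 highest by mean CPM in each list, and for each gene its 3 nearest profiles. Mepce, Larp7, Qrsl1, Snhg9 and Alkbh6 were named after their values were seen. So were the neuronal markers Slc17a7, Wfs1, Neurod6, Snap25 and Camk2a. Copies were found with BLAST+ 2.17.0. TMM (edgeR 4.0.16) and DESeq2 1.42.0 size factors were alternatives. Fold calls and profile distances were tested on simulated data. Python 3.11.15, numpy 2.4.6, pandas 2.3.3 and R 4.3.3 were used.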

Additional observations from a re-analysis of the deposited data

Results flagged for a closer look

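Rn7sk had opposite directions in 2 pairs. It was 17.3-fold lower in Nestin-Cre than in its f/f control and 7.80-fold higher in Olig2-Cre than in its f/f control, with 1 library on each side. The difference between the pairs was not tested.

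Gm24447 also had opposite directions. It was at least 1900.6-fold higher in Olig2-Cre than in its f/f control, which had 0 counts, and 3.41-fold lower in Fto Tg than in WT, where it rested on 13 and 32 counts. This difference was not tested either.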

How the results depend on the processing

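The 9 ratios past 2-fold kept their direction and stayed past 2-fold under all 35 of their alternatives (TMM, DESeq2 size factors, totals without the 10 genes and mitochondrial genes, and the other f/f library as control). With the other f/f library as control, Lars2 and Gm24270 also passed 2-fold in Olig2-Cre, at log2 ratios of -1.17 and -3.64. Malat1 passed 2-fold in the Nestin-Cre pair with TMM (1.02) and DESeq2 (1.05), and Snhg11 turned from -0.34 to 0.34 and 0.37 there. These scalings moved the median gene of that pair by 0.68 and 0.72.

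Of 62 recomputed counts, 45 stayed within 1.5 times. The Olig2-Cre count of 2 became 4 at 1.2-fold and 4 with the other f/f library. The Fto count of 1 became 2 at 1.2-fold and 0 at 4-fold. The count of genes with a 2-fold control range, 5, became 8 at 1.2-fold and 3 at 4-fold, and was 1 to 5 with a control left out (1 without the f/f library of the first pair, 3 without WT). With a 2-fold margin, 2 genes instead of 5 lay outside the controls in Olig2-Cre and 0 instead of 4 in Fto Tg. With a control left out these counts were 8 to 9 in Nestin-Cre, 6 to 7 in Olig2-Cre and 4 to 7 in Fto Tg, with 7 in Fto Tg without the f/f library of the first pair. Gene pairs that vary together, 2 of 45 with Rmrp included, became 6 at a limit of 1 and 0 to 11 with a library left out. They numbered 11 without Nestin-Cre, 0 without its f/f control, and 1 without the other f/f, WT or Fto Tg library. With Rmrp left out, a setting chosen after seeing the data, they were 2 of 36, 3 at a limit of 1 and 10 without Nestin-Cre. The cause of these shifts was not tested. No paired analysis was possible because each group had 1 library and the labels carry no replicate numbers. Rmrp and Rpph1 had at most 44 counts in a library, which limited their ratios, and the cause of these low counts was not tested.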
